A study of Mus musculus with 12 samples.

Results

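Heat shock proteins and the J-domain cochaperones that work with them were followed in polyribosomal RNA of the mouse hippocampus. Members were every gene whose symbol starts with Hspa, Hspb, Hspd, Hspe or Hsph and a digit, with Hsp90, or with Dnaja, Dnajb or Dnajc and a digit. That rule finds 72 of the 24421 genes counted, and it uses names only. By family they are 3 HSP90, 11 HSP70, 3 HSP110, 8 small heat shock, 2 chaperonin, 4 J-domain A, 13 J-domain B and 28 J-domain C genes. The 12 libraries came from 6-week-old C57/Bl6 mice and fall into 6 labelled control and 6 labelled fear case, with no transgene or drug in the labels. The protocol text, worded alike for all 12, describes 8 minutes in an unfamiliar context, 7 minutes in the home cage and collection 15 minutes after the first exposure. The labels do not say what the control mice experienced, whether a shock was given, or that each library is a separate mouse, so p-values measure the spread between these libraries. Polyribosomal RNA here is the pellet of a sucrose cushion, so a level reflects both the amount of a transcript and its association with ribosomes or other heavy particles. In whole tissue, fewer cells of a type and less RNA per cell cannot be told apart.

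Heat shock proteins are molecular chaperones that bind unfolded or partly folded proteins. HSP70 proteins cycle between ATP-bound and ADP-bound states, J-domain proteins bring them clients and trigger ATP hydrolysis, and HSP110 proteins act as nucleotide exchange factors. HSP90 matures kinases and steroid receptors, small heat shock proteins hold aggregating clients without ATP, and the chaperonin Hspd1 with its lid Hspe1 folds proteins in mitochondria. Heat shock factor 1 switches on cytosolic members through heat shock elements, while the unfolded protein response acts on endoplasmic reticulum (ER) members through ER stress elements. In neurons, Hspa8 with Dnajc6 strips clathrin from vesicles and Dnajc5 guards proteins of the synaptic vesicle.

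Promoter windows of RefSeq (GRCm38.p6, from 250 bases before to 50 bases after an annotated start) were matched for 58 of the 72 members. The heat shock element was searched as GAANNTTC or TTCNNGAA on both strands. It occurred in windows of 16 of the 58 members (27.6%), against 17% of the 27025 genes with a window. A list of 14 heat-inducible members was drawn up from background knowledge as targets of heat shock factor 1. A high share with the element was thus in part built into the choice. Of the 11 listed members with a window, 9 held it. Hspa8, Hsp90aa1 and Hsp90ab1 had no window and were not searched. The following 6 windows, each with a match, belong to the small heat shock genes Hspb8 and Hspb1, the inducible HSP70 pair, the chaperonin pair and the HSP110 gene Hsph1. Of the other tested small heat shock genes, Hspb6 held 1 match, at -120 in 1 window and none in another. Hspb11 held none. Capitals mark the matches, and each sequence runs 5′ to 3′ on the strand of its gene.
Hspb8 (chr5:116422815-116423114, minus strand): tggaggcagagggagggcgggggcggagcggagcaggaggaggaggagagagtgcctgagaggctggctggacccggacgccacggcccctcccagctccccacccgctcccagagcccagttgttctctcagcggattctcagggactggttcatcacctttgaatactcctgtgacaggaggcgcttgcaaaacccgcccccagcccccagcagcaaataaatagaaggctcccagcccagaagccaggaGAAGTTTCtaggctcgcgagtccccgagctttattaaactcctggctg
Hspb1 (chr5:135887669-135887968, plus strand): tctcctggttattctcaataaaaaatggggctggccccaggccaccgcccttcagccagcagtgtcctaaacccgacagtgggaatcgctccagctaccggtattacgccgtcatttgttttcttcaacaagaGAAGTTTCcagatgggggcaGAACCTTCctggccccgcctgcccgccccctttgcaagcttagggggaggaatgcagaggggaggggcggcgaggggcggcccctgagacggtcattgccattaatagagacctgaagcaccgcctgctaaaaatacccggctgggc
Hspa1a (chr17:34972107-34972406, minus strand): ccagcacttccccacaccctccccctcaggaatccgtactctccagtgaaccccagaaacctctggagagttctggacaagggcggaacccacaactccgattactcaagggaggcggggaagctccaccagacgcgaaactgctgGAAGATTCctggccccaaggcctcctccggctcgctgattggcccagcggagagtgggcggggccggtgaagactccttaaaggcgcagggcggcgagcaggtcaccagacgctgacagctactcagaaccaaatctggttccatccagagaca
Hspa1b (chr17:34959189-34959488, minus strand): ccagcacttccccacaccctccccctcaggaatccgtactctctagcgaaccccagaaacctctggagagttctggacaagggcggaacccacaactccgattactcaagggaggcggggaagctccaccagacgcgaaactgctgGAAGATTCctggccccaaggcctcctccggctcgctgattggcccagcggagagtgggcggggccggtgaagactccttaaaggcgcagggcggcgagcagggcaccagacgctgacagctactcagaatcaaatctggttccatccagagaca
Hspe1 (chr1:55087898-55088197, plus strand): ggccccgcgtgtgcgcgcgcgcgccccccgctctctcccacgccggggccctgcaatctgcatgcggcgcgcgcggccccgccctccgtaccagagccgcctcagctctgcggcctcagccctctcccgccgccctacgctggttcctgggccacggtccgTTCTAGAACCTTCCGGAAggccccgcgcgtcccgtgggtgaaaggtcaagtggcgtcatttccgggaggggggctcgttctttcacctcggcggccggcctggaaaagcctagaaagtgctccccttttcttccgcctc
Hsph1 (chr5:149636266-149636565, minus strand): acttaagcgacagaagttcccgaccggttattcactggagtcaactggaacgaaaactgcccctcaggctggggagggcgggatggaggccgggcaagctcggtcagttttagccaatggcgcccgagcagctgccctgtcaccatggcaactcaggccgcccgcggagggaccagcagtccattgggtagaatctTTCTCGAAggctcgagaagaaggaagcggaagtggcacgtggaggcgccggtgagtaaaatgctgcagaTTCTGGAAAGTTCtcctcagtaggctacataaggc

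In Hspb8 the match begins 2 bases after the annotated start, and in Hspb1 matches begin at -117 and -97 from it. The windows of Hspa1a and Hspa1b carry the same bases at 296 of 300 positions, and each has 1 match beginning at -104. Hspe1 and Hspd1 are transcribed away from each other, and their windows have 285 bases in common, so the 3 overlapping matches in Hspe1 are also those of Hspd1. A longer form, in which GAA and TTC alternate over 3 units with any 2 bases between them, was found in Hspe1, Hspd1, Hsph1 and Dnajb6, which are 4 of the 58 members (6.90%) against 0.662% of all genes with a window. The ER stress element was searched on both strands as CCAAT, any 9 bases and CCACG, and was found in 3 of the 58 members (5.17%) and in 0.137% of all genes. Those 3 were Hspa5, Hsp90b1 and Dnajc3, of which 2 windows are shown for the results on ER members. The element begins at -65 in Hspa5 and at -212 and -107 in Hsp90b1. The cAMP response element TGACGTCA, a target of the neuronal factor CREB, occurred in 1 member (Dnajc27, 1.72%) and in 2.03% of all genes. A match is a description of the letters in a window.
Hspa5 (chr2:34771840-34772139, plus strand): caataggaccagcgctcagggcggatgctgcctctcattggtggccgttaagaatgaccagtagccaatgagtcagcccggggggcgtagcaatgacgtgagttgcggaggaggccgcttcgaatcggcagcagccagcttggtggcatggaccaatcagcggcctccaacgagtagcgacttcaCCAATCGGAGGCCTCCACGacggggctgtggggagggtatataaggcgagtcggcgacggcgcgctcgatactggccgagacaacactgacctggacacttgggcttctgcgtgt
Hsp90b1 (chr10:86705395-86705694, minus strand): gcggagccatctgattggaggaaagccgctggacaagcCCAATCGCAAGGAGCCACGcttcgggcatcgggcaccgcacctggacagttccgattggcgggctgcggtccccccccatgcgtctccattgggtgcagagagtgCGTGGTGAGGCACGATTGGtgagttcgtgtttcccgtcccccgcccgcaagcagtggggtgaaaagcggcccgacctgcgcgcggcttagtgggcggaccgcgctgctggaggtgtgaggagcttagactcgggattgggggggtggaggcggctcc

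Gene counts ranged from 18569864 to 44218896 per library. Levels are CPM, the usual per-million scale, after TMM scaling of the library sizes. Fear case 6 was the deepest library and had the lowest scaling factor, 0.9077. The ribosomal RNA precursor Rn45s took 12.5% of its gene counts, and the next highest share was 7.98%, in control 6. Markers of hippocampal neurons were present in every library, with 6 summed genes at 6448 to 7193 CPM in controls and 6640 to 7064 in fear case. Choroid plexus markers, from the epithelium that secretes cerebrospinal fluid, had lower means in fear case. All 17 had a negative log2 fold change, beside 51.4% of all tested genes, and 0 passed the test with edgeR, DESeq2 or limma-voom. At an edgeR unadjusted p under 0.05 were 15 of the 17, beside 4.52% of all tested genes with the lower level in fear case. The sum of the 17 was 1076 to 2945 CPM in controls and 102 to 2222 in fear case. The mean log2 CPM of these markers was 3.53 to 4.60 in controls, -0.78 to 2.67 in fear case 1 to 5 and 4.28 in fear case 6. Without fear case 6, edgeR called 16 of the 17 lower at an adjusted p under 0.05, beside 0.791% of 14665 tested genes. Folr1, Slc4a5, Otx2, Aqp1, Steap1 and Tmem72 were at 0 in at least 1 fear case library.

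Together the 72 members took 1.05% to 1.31% of the gene counts. The share was lowest in fear case 2, at 1.05%, and highest in control 5, at 1.31%, and the groups overlapped. Without Rn45s it was 1.12% to 1.40%, with fear case 6 at 1.36% instead of 1.19%. Of the 72 members, 63 had at least 1 count in every library and 62 passed the filter on low counts. The same 62 had a mean of at least 0.5 CPM. The lowest of these were Dnajb13 at 0.649 CPM and Hspa12b at 0.743, and the next below were Hspa1l at 0.409 and Hspb2 at 0.239.

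Per kilobase of annotated exon, Hsp90ab1, Hsp90aa1 and Hspa8 stood far above the other members. Hsp90ab1, the constitutive cytosolic HSP90, averaged 674 CPM per kilobase over the 12 libraries, its stress-inducible relative Hsp90aa1 570 and the constitutive cytosolic HSP70 Hspa8 546. Next came Hsp90b1, the HSP90 of the ER, at 75.5, and Dnaja2, a J-domain partner of Hspa8, at 73.4. Length was the union of all annotated exons, such as 8629 bases for Dnaja1 and 2975 for Dnaja2, so these places depend on it. These 5 genes made up 65.8% of the summed CPM per kilobase of all members. The highest small heat shock gene, Hspb8, had 5.30 CPM per kilobase. Within the HSP70 family the inducible genes Hspa1a and Hspa1b had 0.416 and 0.573. These levels depend on how many reads could be placed. Of the distinct 40-base stretches of its transcripts, 68.4% in Hspa1a and 65.2% in Hspa1b also occur in transcripts of other genes, mostly the other member of the pair. The share was 52.8% in Hspb1, 49.4% in Hsp90aa1, 47.0% in Hspd1, 42.0% in Hspa8 and 6.42% in Hsp90ab1. Reads with several alignments were left out of the counts, so the order of the 3 highest genes is not established by these values.

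**Figure D1:**
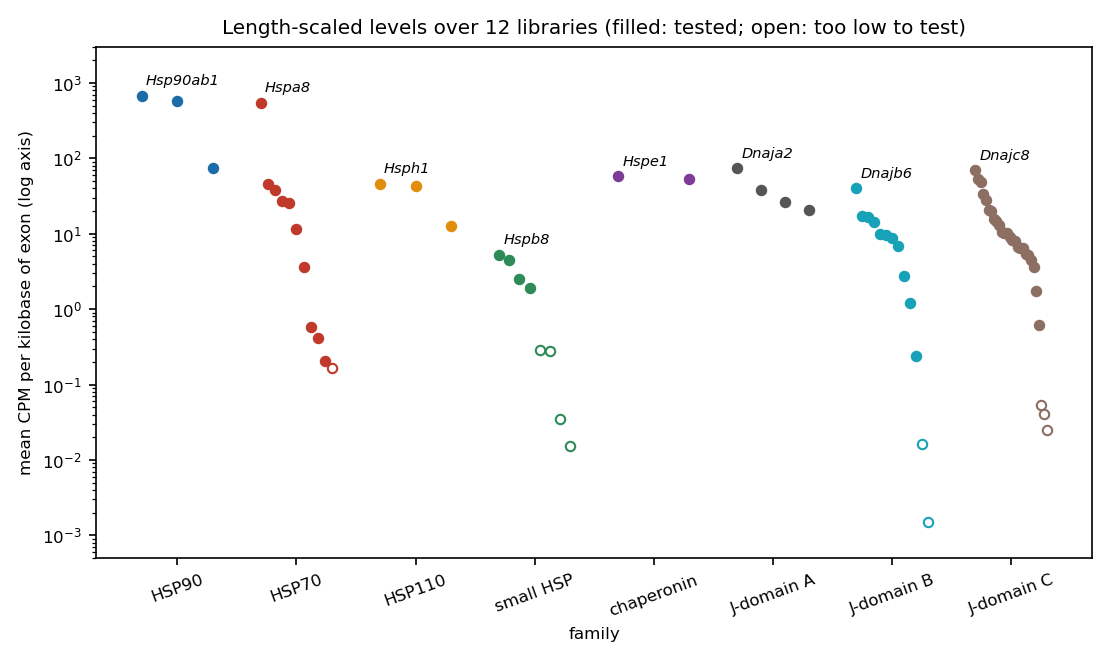
Mean level of each member over the 12 libraries, in CPM per kilobase of exon on a log axis, with 1 point per gene, by family. Filled points were tested, open points were too low, and the highest gene of each family is named, from Hsp90ab1 at 674 to Hspb8 at 5.30.

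Fear case was then set against control to ask which chaperone transcripts differed on polyribosomes. No member passed the test, and most fold changes were small. Lower means in fear case were found for 3 small heat shock genes, led by Hspb8 at 12.3 ± 1.6 CPM in controls and 8.35 ± 1.93 in fear case (SD, n = 6 each). The abundant chaperones Hspa8, Hsp90aa1 and Hsp90ab1 had log2 fold changes of -0.02, 0.08 and -0.05. In edgeR's quasi-likelihood test with Benjamini-Hochberg adjustment, 0 of the 62 tested members had an adjusted p under 0.05, beside 0.103% of the 14564 genes tested (0.0481% higher and 0.0549% lower). DESeq2 and limma-voom also called 0 members. At an unadjusted p under 0.05 there were 4 members of 62, beside 7.14% of all tested genes. Hspb8 and Hspb6 had the lower mean in fear case, beside 4.52% of all genes, and Dnajb4 and Dnajc7 the higher, beside 2.62%. The median log2 fold change was -0.002 over the 62 members and -0.005 over all tested genes, and 31 members were positive and 31 negative, beside 51.4% of all genes that were negative. The fold change was under 0.1 in size on the log2 scale for 40 members. The standard error was under 0.1 for 36 members. A difference of that size is not excluded by the lack of a call. Hspb8, at -0.56 with a standard error of 0.15, had an edgeR adjusted p of 0.210. Without fear case 6, 1 member was called, Hspb8, with the lower level in fear case, beside 0.791% of 14665 tested genes.

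**Figure D2:**
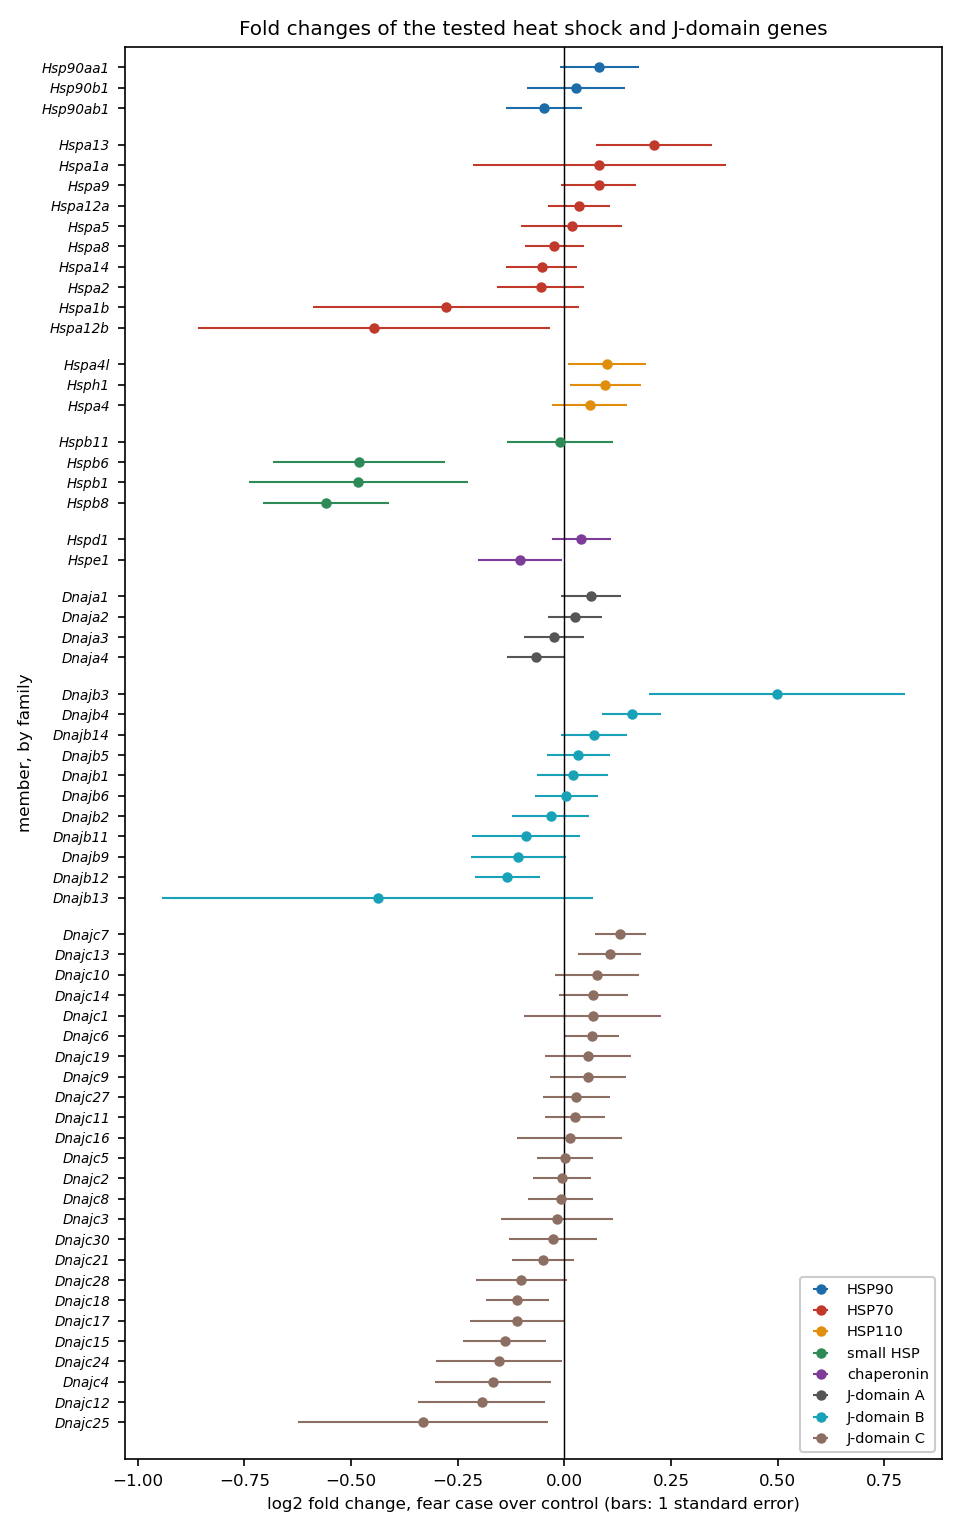
Log2 fold change of fear case over control for the 62 tested members, grouped by family, with bars of 1 standard error. Most points lie within 0.1 of 0, and Hspb8, Hspb1 and Hspb6 lie between -0.56 and -0.48.

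The small heat shock family holds 8 genes, of which 4 were tested, and its summed level was 26.9 to 33.4 CPM in controls and 21.7 to 28.5 in fear case. Hspb8 encodes a small heat shock protein that works with the cochaperone Bag3 in the autophagy of misfolded proteins. The gene spans chr5:116408491-116422864 (GRCm38, minus strand), and its exons overlap those of no other counted gene. Its lowest, median and highest control values were 10.62, 12 and 14.8 CPM, and its fear case values 6.01, 8.25 and 10.56. Every fear case library had less than every control, by 0.0535 CPM at the closest, between fear case 6 and control 2. The log2 fold change was -0.56 (SE 0.15, unadjusted p = 0.000994, edgeR adjusted p = 0.210). Hspb8 was the only one of the 62 members with all fear case libraries below all controls, beside 0.323% of all tested genes. No member had all fear case libraries above all controls. Without fear case 6 its log2 fold change was -0.64 (adjusted p = 0.0354), and it did not pass with any other single library left out. Over all 20 alternatives the adjusted p ranged from 0.0354 to 0.777. It was 0.0527 with DESeq2 and 0.208 with Rn45s left out of the edgeR fit.

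Hspb6, a small heat shock protein best known from muscle, ranged from 5.15 to 8.39 CPM in controls with a median of 6.33, and from 3.11 to 6.85 in fear case with a median of 4.60. Fear case 3, 4 and 5 lay below every control, and the other fear case libraries overlapped with them. Its log2 fold change was -0.48 (SE 0.20, unadjusted p = 0.0266, adjusted p = 0.613). Exons of Hspb6 overlap those of Gm38670 on the same strand and those of Lin37 and Proser3 on the opposite strand. Hspb1, the mouse Hsp25 that also binds actin, ranged from 1.96 to 3.01 CPM in controls with a median of 2.12, and from 1.31 to 2.59 in fear case with a median of 1.45. Every fear case library except fear case 1 lay below all controls. Its log2 fold change was -0.48 (SE 0.26, adjusted p = 0.734), from 29 to 62 counts per library. Hspb11, an intraflagellar transport protein, had means of 9.39 ± 0.845 and 9.35 ± 1.30 CPM and a log2 fold change of -0.01, whose sign changed with some libraries left out.

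**Figure D3:**
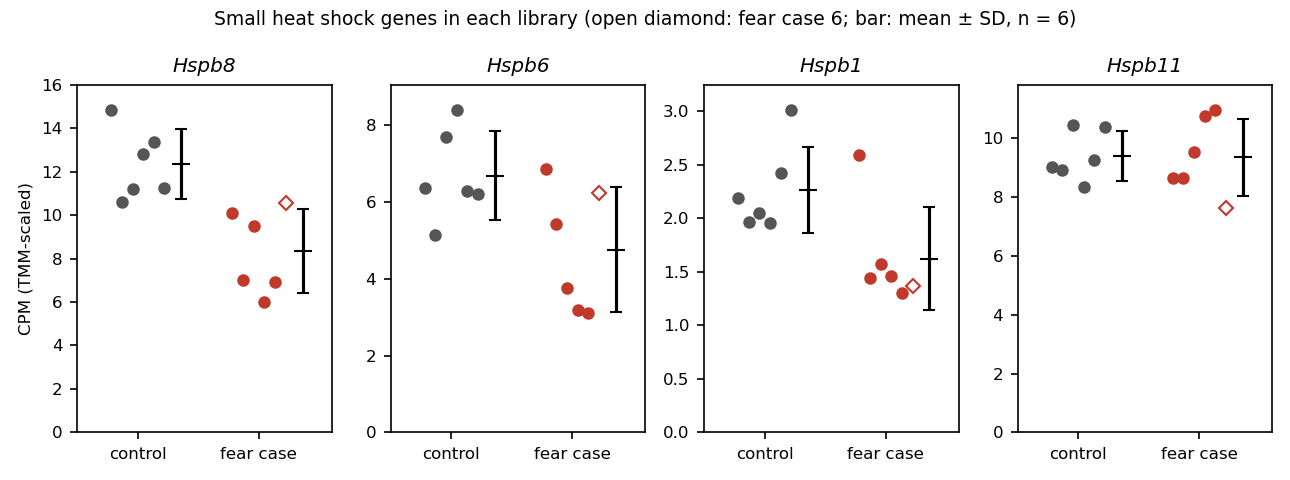
TMM-scaled CPM of the 4 tested small heat shock genes in each library, with the mean and SD (n = 6) beside each group and fear case 6 as an open diamond. For Hspb8 the 6 fear case libraries, 6.01 to 10.56, lie below the controls, 10.62 to 14.8, while the groups overlap for Hspb11.

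Hspb8 and the choroid plexus markers were both low in several fear case libraries, though not in the same order. Fear case 2 and 4, with marker scores of -0.78 and -0.10, had 6.99 and 6.01 CPM of Hspb8. Fear case 6, with a score of 4.28, had 10.56 CPM, the highest of its group. Fear case 5 had 6.94 CPM at a score of 2.32, and fear case 3 had 9.52 at 0.88. With the score as a covariate in the edgeR fit, the log2 fold change was -0.25 for Hspb8 (adjusted p = 0.777), -0.25 for Hspb6 (0.864) and -0.41 for Hspb1 (0.832). Markers of motile cilia, which line the ventricles on ependymal cells, also separated in the direction of Hspb8. Their sum over 6 genes was 32.4 to 39.1 CPM in controls and 23.2 to 26.5 in fear case, without overlap. Of the 5 tested, edgeR called 1 (Tekt1, log2 fold change -1.02, adjusted p = 0.0483), beside 0.0549% of all tested genes called lower. DESeq2 called 3 and limma-voom 0, beside 59 and 12 of all 14564 tested genes. Foxj1 and Rsph4a stood at -0.66 and -0.70 (edgeR adjusted p = 0.0759 and 0.0722), Hydin at -0.15, and Ccdc153 went the other way at 0.12. Endothelial markers, summed over 3 genes, overlapped between the groups at 4.05 to 8.17 and 4.04 to 7.90 CPM. Summed markers of astrocytes, oligodendrocytes and microglia overlapped as well, and edgeR called 0 of them. Log2 fold changes were negative for 3 of 4 astrocyte, 3 of 3 oligodendrocyte and 2 of 3 microglia markers, beside 51.4% of all tested genes. The median log2 fold changes were -0.05, -0.12 and -0.005. The choroid plexus score was 3.53 to 4.60 in controls and -0.78 to 2.67 in fear case 1 to 5. It divides the groups apart from fear case 6, so the covariate fit cannot tell group from choroid plexus content. The part of choroid plexus and other cell types in the Hspb8 values was not tested.

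**Figure D4:**
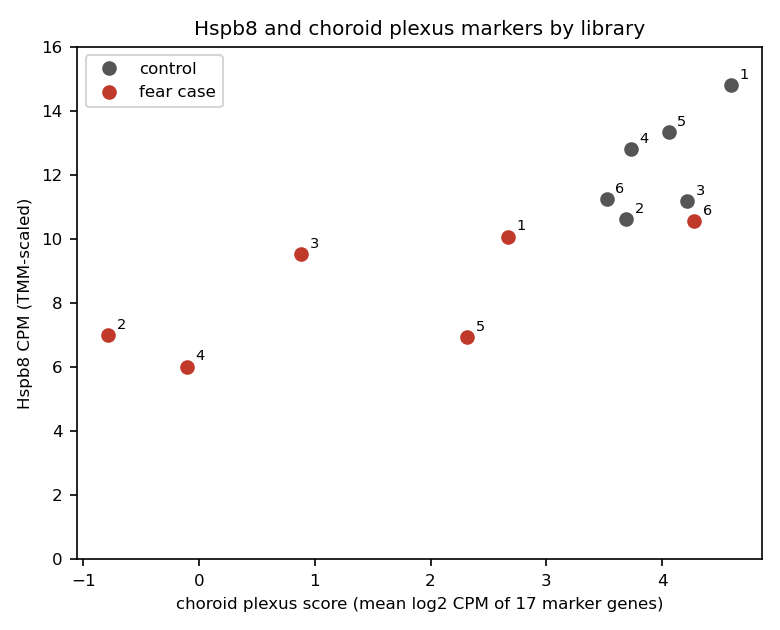
Hspb8 in CPM against the choroid plexus score (mean log2 CPM of 17 marker genes), 1 numbered point per library. Controls lie at 10.62 CPM or more and a score of 3.53 or more, and fear case 2, 4 and 5 have the least Hspb8, at 6.99, 6.01 and 6.94 CPM.

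Cytosolic HSP70, HSP90 and HSP110 genes had log2 fold changes of 0.10 or less in size, apart from the inducible pair described next, Hspa12b and Hspa13, which is an ER gene. Hspa8 ranged from 2193 to 2599 CPM in controls with a median of 2345, and from 2020 to 2558 in fear case with a median of 2354. Its log2 fold change was -0.02 (SE 0.07, adjusted p = 0.968). Exons of Hspa8 overlap those of the small nucleolar RNA genes Snord14c and Snord14d on the same strand. Hsp90aa1 ranged from 1876 to 2481 CPM in controls and from 1708 to 2673 in fear case, and the log2 difference was 0.08 (SE 0.09, adjusted p = 0.888). Hsp90ab1 ranged from 1873 to 2357 and from 1517 to 2337 CPM (log2 fold change -0.05, SE 0.09, adjusted p = 0.937). Both were lowest in fear case 2. The ratio of Hsp90aa1 to Hsp90ab1 in CPM was 1.13 to 1.19 in the 6 fear case libraries. In controls it was 0.991 to 1.07 except for control 3 at 1.20, so the groups overlapped through that library, and the ratio was chosen after its values were seen and not tested. The exchange factors Hsph1, Hspa4l and Hspa4 had log2 fold changes of 0.10, 0.10 and 0.06, with adjusted p from 0.837 to 0.922. Hspa12a, an atypical HSP70 family gene, averaged 349 ± 37.1 and 357 ± 18.5 CPM.

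The stress-inducible HSP70 genes had few counts. Hspa1a had 18 to 42 counts per library and 0.954 to 1.48 CPM in controls against 0.740 to 1.70 in fear case. Hspa1b had 12 to 60 counts and 0.611 to 2.66 CPM in controls against 1.15 to 1.78 in fear case. Their log2 fold changes were 0.08 (SE 0.30, adjusted p = 0.977) and -0.28 (SE 0.31, adjusted p = 0.885), so these data resolve only large changes of this pair. For Hspa1b the value was -0.12 without control 3 and -0.45 without control 1. Summed, the pair ranged from 1.58 CPM in control 1 to 4.01 in control 3, and the fear case libraries, at 1.89 to 3.23, lay inside that range. Dnajb1, the heat-inducible J-domain partner of HSP70, ranged from 44.5 to 47.6 CPM in controls and from 35.8 to 53.7 in fear case, where its fold change was 0.02 on the log2 scale (SE 0.08, adjusted p = 0.981). Over the 14 heat-inducible members, 0 rose, 0 fell and 14 did not pass, with a median log2 fold change of 0.03. Of the 14, 2 had an unadjusted p under 0.05 (Hspb8 and Dnajb4), beside 7.14% of all tested genes.

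Mitochondrial members also overlapped between the groups. Hspa9, the HSP70 of the mitochondrial matrix, averaged 191 ± 22.6 CPM in controls and 202 ± 26.0 in fear case (log2 fold change 0.08, adjusted p = 0.883). The chaperonin Hspd1 averaged 137 ± 7.52 and 141 ± 13.5 CPM and its lid Hspe1 88.5 ± 13.4 and 82.3 ± 10.5. Their log2 fold changes, 0.04 and -0.10, had opposite signs although the genes share most of a promoter window, and neither passed (adjusted p = 0.934 and 0.853). Exons of Hspd1 and Hspe1 overlap on opposite strands. Of the 10 listed mitochondrial members 0 were called higher and 0 lower, at a median log2 fold change of -0.03 that turned to 0.004 without fear case 6.

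Among J-domain genes, the highest per length were Dnaja2 at 73.4, the splicing-associated Dnajc8 at 70.2 and the auxilin gene Dnajc6 at 53.9 CPM per kilobase. Without length scaling, genes such as Dnajc5 (338 CPM), Dnaja1 (328) and Dnajc6 (318) stood above Dnaja2 (218). The 4 class A genes had log2 fold changes from -0.07 to 0.06, with Dnaja1 and Dnaja2, partners of cytosolic HSP70, at 0.06 and 0.03 and Dnaja4 at -0.07. Dnajb4, a class B relative of Dnajb1, ranged from 53.3 to 61.4 CPM in controls with a median of 58.0, and from 58.4 to 71.3 in fear case with a median of 64.0. It was above all controls in 4 fear case libraries, and the other 2 overlapped (log2 fold change 0.16, SE 0.07, unadjusted p = 0.0315, adjusted p = 0.618). Dnajc7, a tetratricopeptide cochaperone that binds HSP70 and HSP90, ranged from 149 to 171 CPM in controls with a median of 155, and from 162 to 178 in fear case with a median of 173. It too lay above all controls in 4 fear case libraries (log2 fold change 0.13, SE 0.06, unadjusted p = 0.0385, adjusted p = 0.642). Its exons overlap those of the myelin gene Cnp and of Nkiras2 on the opposite strand, and the sources used here do not say whether counting used strand. With the choroid plexus covariate in the edgeR fit the log2 fold changes were 0.23 for Dnajb4 (adjusted p = 0.644) and 0.17 for Dnajc7 (0.678).

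Vesicle and endosome members were close to 0. Dnajc5, the cysteine string protein of synaptic vesicles, averaged 338 ± 17.6 CPM in controls and 339 ± 22.8 in fear case (a log2 difference of 0.001, SE 0.07). Dnajc6 averaged 311 ± 18.5 and 326 ± 19.5 CPM (log2 fold change 0.07, adjusted p = 0.860). The endosomal J-domain gene Dnajc13 averaged 90.8 ± 9.39 and 97.7 ± 6.61 CPM (log2 fold change 0.11, adjusted p = 0.793). Dnajb6, which restrains polyglutamine aggregation, averaged 242 ± 17.9 and 243 ± 24.5 CPM, and Dnajb5 97.2 ± 8.32 and 99.5 ± 8.57. Dnajc8 averaged 180 ± 20.3 and 179 ± 12.8 CPM. At the low end, Dnajb3 averaged 1.07 ± 0.314 and 1.5 ± 0.376 CPM (log2 fold change 0.50, SE 0.30, adjusted p = 0.762). Hspa12b, an endothelial HSP70 relative, averaged 0.863 ± 0.366 and 0.623 ± 0.346 CPM (log2 fold change -0.45, SE 0.41), and the difference was -0.18 without control 5 and -0.67 without fear case 1.

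Dnajb13, a J-domain protein of motile cilia and sperm tails, ranged from 0.194 to 0.968 CPM in controls and from 0.0442 to 1.11 in fear case, or 1 to 26 counts per library. The groups overlapped, and its log2 fold change was -0.44 (SE 0.51, adjusted p = 0.891). It ranged from -0.75 to -0.20 with single libraries left out (fear case 1 and fear case 4) and turned to 0.44 with the choroid plexus covariate. Beside it, the summed level of the 6 motile cilia markers in the files was 32.4 to 39.1 CPM in controls and 23.2 to 26.5 in fear case, the set described beside Hspb8. Exons of Dnajb13 overlap those of Ucp2 on the opposite strand.

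ER members differed little between the group means for the main chaperones. Most or all of the 13 deviated the same way in control 1, control 4, fear case 1 and fear case 6. The log2 fold changes ran from -0.33 for Dnajc25, at 3.17 ± 1.21 and 2.5 ± 1.15 CPM and named after its values were seen, to 0.21 for Hspa13. Hspa5, the HSP70 of the ER known as BiP, averaged 114 ± 20.3 CPM in controls and 115 ± 22.3 in fear case (a log2 difference of 0.02, SE 0.12, adjusted p = 0.989). It ranged from 91.2 to 150 CPM in controls and from 83.8 to 142 in fear case. Hsp90b1 averaged 302 ± 58.8 and 307 ± 54.3 CPM (log2 fold change 0.03, adjusted p = 0.981), and Dnajc3, an inhibitor of the kinase PERK, 34.8 ± 6.43 and 34.3 ± 7.44. Control 1 was the highest control and fear case 6 the highest fear case library for each of these 3 genes, while fear case 1 was the lowest fear case library for each. In control 1 all 13 ER members lay above the control mean of log2 CPM, with a median deviation of 0.29, and in fear case 6, 12 of 13 lay above the fear case mean, with a median of 0.30. In fear case 1, 0 of 13 did, with a median of -0.36. In control 4, 2 of 13 lay above the control mean, with a median of -0.17, and in control 6, 4 of 13 did, with a median of -0.11. In control 2, 3 and 5 and fear case 2 to 5 the members were mixed, with 5 to 8 of 13 above the mean. All 62 members together deviated by medians of -0.06 to 0.06 over the 12 libraries. Dnajb9, another unfolded protein response gene, ranged from 21.7 to 29.0 and from 18.7 to 31.0 CPM. Of the 13 ER members 0 were called higher and 0 lower, at a median log2 fold change of 0.01 that turned to -0.07 without fear case 6. The lowest p values belonged to Dnajb12 (log2 fold change -0.13, adjusted p = 0.745), Hspa13 (0.21, 0.781) and Dnajc18 (-0.11, 0.785).

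Heat-inducible members followed another order of libraries. In fear case 2, 1 of the 14 lay above the fear case mean, with a median deviation of -0.21. In fear case 1, 12 of 14 lay above that mean, with a median of 0.10. In control 5 and 6, 13 and 12 of 14 lay above the control mean, and in control 1, 2 and 4 only 2, 1 and 4 did. In the remaining libraries 8 to 10 of 14 lay above the mean of their group. The 3 ER genes with an ER stress element summed to 386 to 609 CPM in controls and 343 to 590 in fear case. Fear case 6 was also the deepest library, had the highest Rn45s share and stood apart from its group in choroid plexus markers. Control 1 had the highest choroid plexus score, at 4.60. The part of library make-up in these deviations was not tested.

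**Figure D5:**
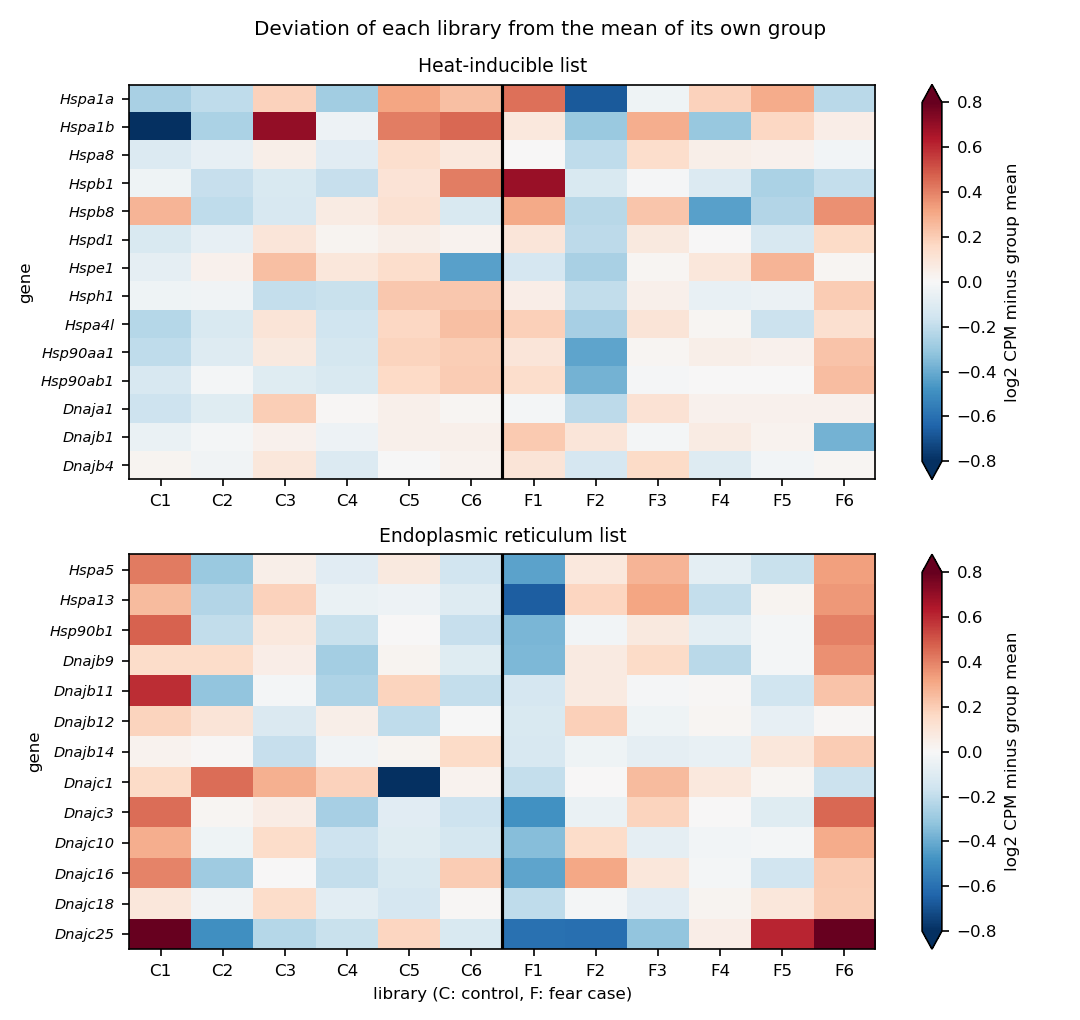
Log2 CPM of each heat-inducible (top) and ER member (bottom) minus the mean of the library's own group, with control libraries C1 to C6 and fear case libraries F1 to F6 in columns. ER genes are high in C1 and F6 and low in F1, and most are low in C4. Heat-inducible genes are low in F2 (median -0.21), and most are low in C1 and C2 and high in C5, C6 and F1.

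Cochaperones and chaperones outside the naming rule were read from a list of 41 genes, all tested. Of these 0 rose, 0 fell and 41 did not pass with edgeR, DESeq2 or limma-voom, and the median log2 fold change was 0.01, in a range from -0.20 to 0.20. At an unadjusted p under 0.05 were 3 of the 41, beside 7.14% of all tested genes. They included Fkbp4, an HSP90 cochaperone of steroid receptors (log2 fold change -0.19, adjusted p = 0.449), and the HSP90-binding Chordc1 (0.20, adjusted p = 0.597). The other was the lens and glial small heat shock gene Cryab (-0.16, adjusted p = 0.670). Fkbp4 averaged 123 ± 3.82 CPM in controls and 108 ± 8.98 in fear case. The transcription factor gene Hsf1 averaged 20.4 ± 1.48 and 19.7 ± 2.85 CPM. Bag3, the partner of Hspb8, averaged 8.93 ± 1.94 and 8.29 ± 1.90 CPM (log2 fold change -0.11, adjusted p = 0.927).

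The 10 untested members had at most 24 counts in any library and means of 0.00208 to 0.409 CPM. They were Hspa1l, Hspb2, Hspb3, Hspb7, Hspb9, Dnajb7, Dnajb8, Dnajc22, Dnajc5b and Dnajc5g. Hspa1l had 2 to 24 counts, and 71.6% of the stretches of its transcripts also occur in those of other genes. Hspb2, whose exons overlap Cryab on the opposite strand, had 0 to 11 counts. These genes were not tested in the main fit. The fit with no filter held all 72 members and called 0 of them in either direction.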

How the data were processed

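Polyribosomal RNA of 12 hippocampus libraries was compared between 6 control and 6 fear case samples, grouped by their labels. Per the labels' protocols, cushion pellets gave RNA for SMARTer total RNA-seq libraries, read as 40 bp pairs. The authors deposited raw read counts per gene symbol. Cutadapt, TopHat, Bowtie, HTSeq and mm10 are named in the submitters' processing notes, and versions, annotation and strand setting were not stated. Summary lines were left out of library sizes. They put 25.5% to 33.3% of assigned, ambiguous and unassigned counts on no gene, and alignments that were not unique were not counted.

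Tests used edgeR 4.0.16 (R 4.3.3) with filterByExpr (minimum count 10, minimum total 15), TMM scaling, and the quasi-likelihood test with Benjamini-Hochberg adjustment over all 14564 genes kept, calls at 0.05. The SE is the log2 fold change over the root of F. Log2 CPM used a prior count of 2. DESeq2 1.42.0 and limma 3.58.1 were alternatives. Coordinates and exon lengths came from GENCODE vM21 (GRCm38), which holds all 72 members. The fit was tested on simulated data. Genes named were those called, the 3 highest of each family, the 5 lowest p values in each direction, members whose groups did not overlap, 16 fixed genes and those around 0.5 CPM. Members and lists were chosen with earlier results of these data known.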

Additional observations from a re-analysis of the deposited data

Results flagged for a closer look

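Among the 40 named members, each group of 6 libraries was examined for 1 library far from the rest, its gap to the nearest other library divided by the range exceeding Dixon's value of 0.625. Of 80 groups examined, 6 held such a library, and chance marks about 1 in 20. Dnaja4 stood at 107 CPM in fear case 1, above the rest of its group. Dnajc5 stood at 293 CPM in fear case 6, below the other fear case libraries. Hsp90b1 stood at 412 CPM in control 1. Hspb1 stood at 2.59 CPM in fear case 1. At low counts, Hspa12b stood at 1.57 CPM in control 5 and Hspa1l at 1.17 CPM in control 2.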

How the results depend on the processing

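No member was called higher under any of the 20 alternatives run, and 1 was called lower (Hspb8) without fear case 6. With single libraries left out, members called lower therefore numbered 0 to 1, members called higher 0 to 0, and the median log2 fold change over members ranged from -0.0124 to 0.0049. For the 38 named members with a fit, 21 kept their direction under all alternatives. The choroid plexus covariate turned the direction of Dnajb1 (-0.12), Dnajb5 (-0.0755), Dnajc5 (-0.085), Dnajb13 (0.44), Dnajb9 (0.0109), Dnajc3 (0.15), Dnajc8 (0.0379), Hsp90ab1 (0.14), Hspa12b (0.24) and Hspa8 (0.0012), and limma-voom that of Dnajb1 (-0.0028), Dnajb6 (-0.0005) and Dnajc5 (-0.0025). None of these passed the threshold, and the cause was not tested. Log2 fold changes that changed sign with a single library left out ranged from -0.0079 to 0.0479 for Dnaja2, from -0.0259 to 0.0869 for Dnajb1, from -0.0415 to 0.049 for Dnajb6, from -0.127 to 0.0868 for Dnajc3, from -0.0157 to 0.0384 for Dnajc5, from -0.048 to 0.0337 for Dnajc8, from -0.101 to 0.0205 for Hsp90ab1, from -0.0657 to 0.14 for Hsp90b1, from -0.02 to 0.201 for Hspa1a, from -0.0108 to 0.115 for Hspa4, from -0.0557 to 0.113 for Hspa5, from -0.0511 to 0.0154 for Hspa8, from -0.0602 to 0.0437 for Hspb11. With the label number as a replicate block 0 members were called and 18 genes in all, and Dnajc5 stood at -0.0003. Same-numbered libraries correlated from -0.42 to 0.21 in their deviations, so the numbers were not taken as pairs. Genes with few counts, such as Hspa1a, Hspa1b and Dnajb13, are limited by depth. Genes called numbered 37 of 21615 with no filter and 59 with DESeq2, against 15.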
